A study of Mus musculus with 16 samples.

Results

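The solute carriers are membrane proteins, named Slc with a family number, that move small molecules and ions across membranes. The genes described here are protein-coding genes with such a name, selected on their measured level: at least 5 CPM (a gene's counts scaled to the library's total, in units of 1e6 counts) as the mean over all 16 libraries. The glucose (Slc2a), plasma membrane sodium/calcium (Slc8a), monocarboxylate (Slc16a), mitochondrial (Slc25a) and fatty acid (Slc27a) families were left out. This rule took 126 of 286 genes with these names, in a table of 46078 genes, of which 21775 were protein-coding. The rule used the mean level over all groups, so the levels are a description. The members nearest to the limit were Slc12a5 at 5.01 CPM, Slc46a3 at 5.72 CPM and Slc7a11 at 5.95 CPM inside it, and Slc9a2 at 4.88 CPM, Slc7a7 at 4.59 CPM and Slc38a4 at 4.56 CPM outside it. In 111 of the 126 members the mean was at least 5 CPM in each of the 4 groups. All 126 passed the filter on low counts and were tested.

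The cells were labelled as cultured mouse juxtaglomerular (JG) cells, the renin-secreting type of the kidney arteriole, engineered so that the renin promoter drives YFP. They had been transfected with miR-106b or with a non-mammalian microRNA precursor as control and harvested after 48 h. PolyA RNA came from 4 replicate cultures per transfection, and RNA bound to immunoprecipitated Ago2 (Ago2-IP) from another 4 per transfection, so each kind of RNA has a control and a miR-106b group. The libraries held 2579086 to 9459585 gene counts, and 3 counts correspond to 1.16 CPM in the shallowest and 0.317 CPM in the deepest.

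The labelled cell type and the groups were compared with marker genes. Ren1, the renin gene, had 0 counts in all 16 libraries, and Akr1b7, another gene of renin cells, had 6 counts in all, which goes against the label. The summed level of 25 cardiac muscle genes was 34016, 26617, 28609.5 and 37311 CPM in the polyA control libraries and 50966, 87419, 63460.4 and 85340.2 CPM in the polyA miR-106b libraries, a 2.27-fold higher mean with no overlap (p = 0.0286 in a two-sided exact permutation test over libraries, the lower limit of p in a design of 4 and 4). It was 117740.1 to 126114 CPM in the Ago2-IP control and 113931 to 125061 CPM in the Ago2-IP miR-106b libraries. Summed endothelial markers were 2.29-fold and summed macrophage and leukocyte markers 2.26-fold higher in polyA miR-106b than in polyA control RNA. The summed juxtaglomerular and mural markers were 1.36-fold higher, but their members differed: Des, also a gene of cardiac muscle, had means of 1102 and 2517 CPM in polyA control and miR-106b RNA, Rgs5 had 38.5 and 85.7 CPM, Pdgfrb 118 and 207 CPM, Cspg4 31.9 and 79.6 CPM and Mcam 35.5 and 67.2 CPM, while Acta2 had 757 and 590.1 CPM, Tagln 498 and 351 CPM and Nes 439 and 206 CPM. These sums moved with the polyA comparison described below, and their part in its results was not tested.

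Solute carriers work as cotransporters, which couple a solute to the inward gradient of sodium or protons, as exchangers, which swap solutes, or as uniporters, which let one solute follow its own gradient. In smooth muscle and renin cells, carriers of this kind set intracellular pH, chloride, volume and amino acid supply. miR-106b-5p belongs to the miR-17 family. A microRNA guides Ago2 to messenger RNAs through pairing of its seed with sites that lie mostly in 3'UTRs, and the messages so bound are usually translated less and degraded faster, so binding can be read from Ago2-IP RNA and loss from polyA RNA.

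The names take in more than the plasma membrane. By textbook location, assigned by family or by gene, 72 of the 126 were placed at the plasma membrane. Another 45 were placed in an inner membrane such as the Golgi, endoplasmic reticulum, lysosome or mitochondrion. A place assigned by family need not hold for each gene. For 5 members no place was assigned. The other 4, Slc9a3r1, Slc9a3r2, Slc4a1ap and Slc7a6os, are no carriers and share only the name. By role the largest lists were amino acids with 21 members, nucleotide sugars and other Golgi or ER carriers with 20, zinc with 15, organic ions, bile acids and peptides with 11, and bicarbonate and other anions with 10. The term "plasma membrane" therefore fits 72 members only.

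The mature sequence of miR-106b-5p and the sites that match its seed in the annotated 3'UTRs of members are shown because the transfected microRNA pairs through them. The microRNA lies on the minus strand at chr5:138165787-138165807 (RefSeq, GRCm38.p6), and its capitals are bases 2 to 8, the seed. Sites were searched in the longest GENCODE M21 3'UTR of each gene, which need not be the one used in these cells. An intron lies between the sites of Slc4a7. The site windows are transcript-sense sequence of GRCm38 with these 3'UTRs. Their capitals are the match GCACTTT to bases 2 to 8, and their coordinates are those of the 7 capitals. The first 6 genes had the strongest falls in polyA RNA among members with such a site, Slc7a11 had 1 of the largest rises in the ratio of Ago2-IP to polyA RNA, and the last 2 genes rose most in polyA RNA among members with a site.
mmu-miR-106b-5p: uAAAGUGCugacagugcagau
Slc41a2, chr10:83232456-83232462, minus strand: tcagtagtaaGCACTTTaaaattgccc
Slc7a1, chr5:148330787-148330793, minus strand: caccgtccagGCACTTTgtctcctagg
Slc30a4, chr2:122683816-122683822, minus strand: tttcaacctaGCACTTTgtatggctct
Slc4a7 site 1, chr14:14794008-14794014, plus strand: ccagtggaagGCACTTTccatgaatac
Slc4a7 site 2, chr14:14798505-14798511, plus strand: acacagccctGCACTTTcttagatgcc
Slc19a2, chr1:164265273-164265279, plus strand: tgtactgtatGCACTTTgatgaagacg
Slc6a9, chr4:117868480-117868486, plus strand: agtgtccaaaGCACTTTggaggaggcc
Slc7a11, chr3:50367066-50367072, minus strand: tgggttctgaGCACTTTgtgtgatggg
Slc17a7, chr7:45175838-45175844, plus strand: ccaaatccttGCACTTTattctcctgg
Slc12a7 site 1, chr13:73816064-73816070, plus strand: aggcgcctctGCACTTTtcaagaacct
Slc12a7 site 2, chr13:73816093-73816099, plus strand: cagatgatttGCACTTTacccttgggc

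The site of Slc41a2, the site of Slc17a7 and the second of Slc12a7 are followed by an A, which makes them 8mer sites. A match to bases 2 to 8, or to bases 2 to 7 followed by A (CACTTTA), stood in the 3'UTR of 37 of the 126 members (29.4%) and of 3048 of the 13234 genes tested that had a 3'UTR (23.0%). Matches to bases 2 to 8 alone stood in 25 members (19.8%) and in 15.3% of the genes tested. The median 3'UTR was 1769 bases long in the members and 1398 bases in the genes tested. A letter match is a description and does not show binding.

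Per kilobase of exon, as a mean over both kinds of RNA, the most abundant members were Slc9a3r2 and Slc6a8. Slc9a3r2, an adaptor that ties membrane proteins to the cytoskeleton, stood at 65.5 CPM per kb and the creatine transporter Slc6a8 at 62.00 CPM per kb. The order can differ within each kind. Means in polyA control and Ago2-IP control RNA were 84.2 and 229 CPM for Slc9a3r2, and 166 and 121 CPM for Slc39a1. The zinc importer Slc39a1 stood at 58.00 CPM per kb, the taurine transporter Slc6a6 at 46.9 CPM per kb, the magnesium carrier family member Slc41a3 at 46.4 CPM per kb, Slc38a10 at 45.98 CPM per kb and the chloride/bicarbonate exchanger Slc4a3 at 45.9 CPM per kb, each as a mean over the 16 libraries. The summed level of the 126 members was 6935, 6961, 6799 and 7136 CPM in polyA control and 6634, 6568, 6639 and 6488 CPM in polyA miR-106b libraries. It was 6023 to 6278 CPM in Ago2-IP control and 5919.5 to 6144 CPM in Ago2-IP miR-106b libraries. CPM hold no TMM scaling, the adjustment between libraries used in the tests. Its factors were 1.01 for polyA control replicate 3 and 0.982 for polyA miR-106b replicate 1. The order of the sums can change with it. Without that scaling the sum was lower in each polyA miR-106b library than in each polyA control library, while the Ago2-IP groups overlapped. Amino acid carriers took 1814 to 1905 CPM of it in polyA control RNA, 1310.0 to 1563 CPM in polyA miR-106b RNA, and 1016 to 1069 CPM and 993 to 1058 CPM in the Ago2-IP groups.

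**Figure D1:**
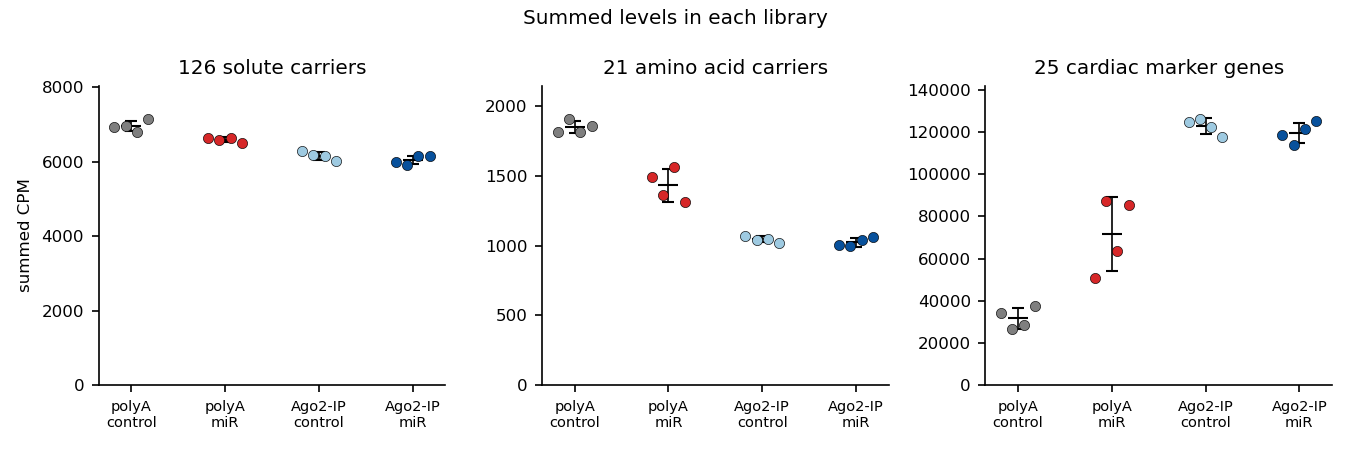
Summed CPM in each library (points) of the 4 groups, with the group mean and SD (bars), for the 126 solute carriers, the 21 amino acid carriers and the 25 cardiac marker genes. The carriers' sum fell within a narrow band of 5920 to 7136 CPM, while the cardiac sum ran from 26617 CPM in the lowest polyA control library to 126114 CPM in the highest Ago2-IP library.

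The first comparison asked which carriers changed in polyA RNA with miR-106b. Of the 126 members, 24 were higher and 32 lower at an adjusted p under 0.05 (edgeR quasi-likelihood F test, Benjamini-Hochberg adjustment over 14897 genes). That is 56 members, beside 40.5% of all genes called, 19.0% higher and 21.5% lower. Among all genes at or above that same level of 5 CPM, 48.9% were called beside 44.4% of the members. The groups did not overlap in 55 members, beside 38.5% of all genes, and 51 of these were also called, beside 34.0%. The median log2 change was -0.07 in the members and -0.05 in all genes tested, with members from -1.58 to 1.72. In such bulk RNA, fewer cells of a type and less RNA per cell cannot be told apart.

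**Figure D2:**
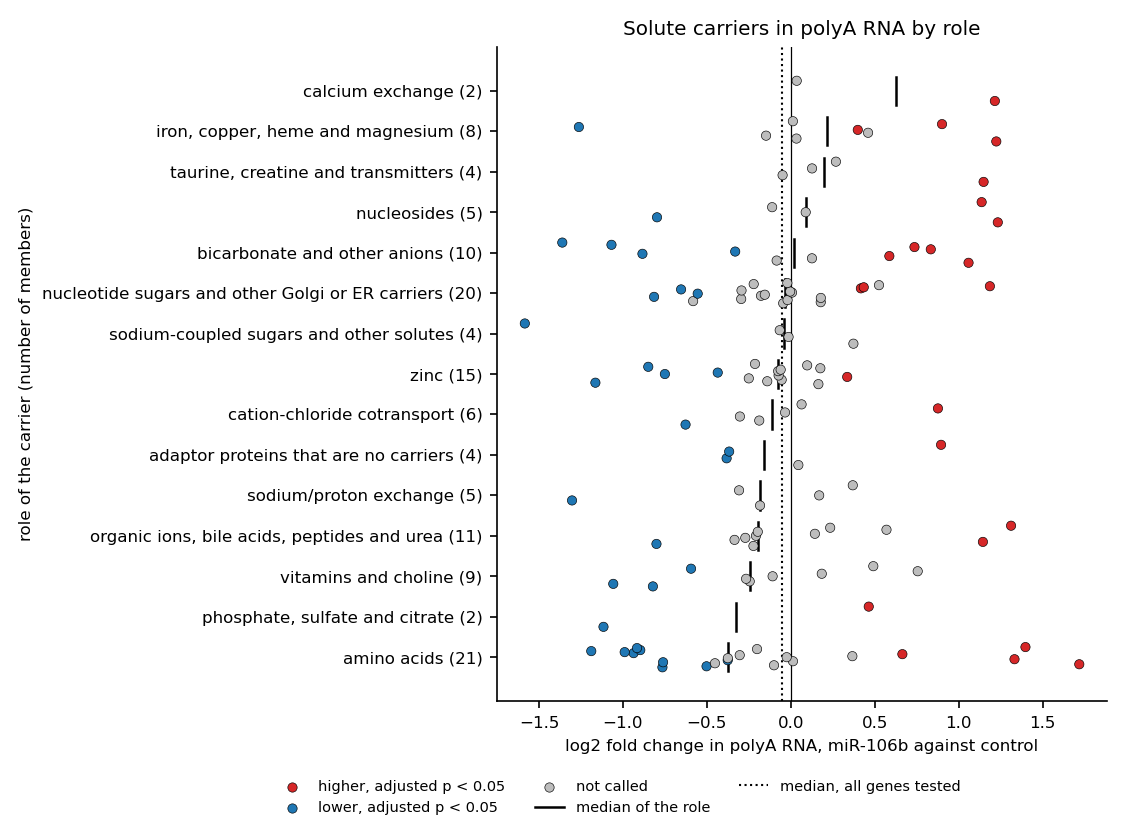
Log2 fold change in polyA RNA (miR-106b against control, x axis) of each of the 126 members, by role (y axis, with the number of members). Red and blue points passed the test, grey points did not, and bars give the median of each role; the amino acid list has the lowest median, -0.38, and its called members stand on both sides.

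In the gene accounts that follow, the polyA control libraries come first and the polyA miR-106b libraries second, each in the order of replicates 1 to 4. Amino acid carriers held the 3 largest rises and 9 of the 32 falls. Of 21 members, 4 were higher and 9 lower, with a median log2 change of -0.38. The counts of this and the other roles are to be read beside the 19.0% of all genes that were higher and the 21.5% that were lower. Slc36a2, a proton-coupled carrier of glycine and proline, was at 5.24, 3.81, 3.64 and 6.32 CPM in the polyA control and 7.90, 19.9, 13.8 and 19.9 CPM in the polyA miR-106b libraries. The groups did not overlap, replicate 1 of the miR-106b group being nearest to the controls, and the log2 change was 1.72 ± 0.30 (SE) with adjusted p = 0.00108 by edgeR. Slc7a8, the light chain of an exchanger of neutral amino acids, was at 8.09, 6.66, 5.76 and 10.9 CPM and 14.5, 22.6, 18.95 and 25.2 CPM. It rose by a log2 change of 1.40 ± 0.23 (SE). Slc38a3, a sodium-coupled carrier of glutamine and histidine, was at 35.5, 29.6, 30.01 and 39.00 CPM and 60.6, 97.4, 71.8 and 102 CPM. All 4 miR-106b libraries again lay above all controls, and the log2 change was 1.33 ± 0.18 (SE) (edgeR adjusted p = 0.000682).

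Falls in the same role included several importers. Slc7a1, the main importer of arginine and lysine, was at 354, 359, 327 and 329 CPM in polyA control and 89.6, 167, 226 and 112 CPM in polyA miR-106b libraries. The miR-106b libraries spread widely but all lay below the controls, with a log2 change of -1.19 ± 0.21 (SE) and adjusted p = 0.00121 by edgeR. Slc6a9, a glycine transporter, was at 17.3, 20.1, 19.7 and 17.4 CPM and 8.34, 8.92, 13.2 and 6.39 CPM. Its groups did not overlap, and its log2 change was -0.99 ± 0.19 (SE); 27.8% of its exon length lies opposite Ccdc24, which had only 0.554 CPM on average. Slc6a17, a neuronal carrier of neutral amino acids, stood at 147 to 162 CPM in controls and 53.99 to 97.9 CPM with miR-106b, a log2 change of -0.94 ± 0.15 (SE). Slc1a4 and Slc1a5, sodium-dependent exchangers of small neutral amino acids and of glutamine, had log2 changes of -0.77 ± 0.14 (SE) and -0.50 ± 0.11 (SE), and both passed the test.

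Slc7a11, the cystine/glutamate exchanger that supplies cysteine for glutathione, was at 10.5, 11.3, 11.1 and 11.2 CPM in polyA control and 3.95, 5.77, 9.48 and 4.26 CPM in polyA miR-106b libraries. The groups did not overlap, and the log2 change of -0.90 ± 0.24 (SE) passed the test. Its partner chain Slc3a2 was at 234, 265, 251 and 244 CPM and 287, 140.2, 174 and 187 CPM. Here replicate 1 of the miR-106b group lay above every control and the other 3 below, and the log2 change of -0.30 ± 0.18 (SE) did not pass (edgeR adjusted p = 0.1995). Without that library it was -0.48, with adjusted p = 0.00296 by edgeR. Slc38a2, a sodium-coupled importer of small neutral amino acids, fell by a log2 change of -0.38 ± 0.10 (SE), with an edgeR adjusted p of 0.0110 that became 0.0918 (log2 change -0.30) without polyA control replicate 1. Slc38a10, another member of this role, stood at 331 to 382 CPM and 312 to 383 CPM and did not pass.

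Carriers of acid, base and chloride were split as well. Of the 10 carriers of bicarbonate and other anions, 4 were higher and 4 lower. Slc4a8, a sodium-driven exchanger of chloride for bicarbonate, was at 19.5, 25.3, 20.5 and 21.8 CPM in polyA control and 4.83, 9.45, 14.4 and 4.97 CPM in polyA miR-106b libraries, without overlap. Its log2 change was -1.36 ± 0.26 (SE). Slc4a7, a sodium bicarbonate cotransporter that loads cells with base, was at 17.6, 15.8, 19.6 and 13.2 CPM and 9.22, 6.30, 9.76 and 5.33 CPM, and fell by a log2 change of -1.07 ± 0.21 (SE). Both carry base into the cell, and both were lower in each miR-106b library than in each control. Slc4a3, which exports bicarbonate for chloride and is known from heart and brain, was at 193, 167, 177 and 228 CPM and 257, 411, 302 and 367 CPM and rose by a log2 change of 0.83 ± 0.16 (SE). Slc26a10, of an anion exchanger family, rose by 1.06 ± 0.22 (SE) from 10.6 to 13.8 CPM to 16.7 to 34.6 CPM; 17.8% of its exon length lies opposite B4galnt1, whose mean was 94.5 CPM, and these libraries kept no strand.

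Among the 5 sodium/proton exchangers 0 rose and 1 fell. That was Slc9a5, at 81.4, 78.8, 73.96 and 68.9 CPM in polyA control and 21.7, 35.2, 41.6 and 22.7 CPM in polyA miR-106b libraries. The highest miR-106b library lay well under the lowest control, and the log2 change was -1.30 ± 0.17 (SE) (edgeR adjusted p = 0.000682). Of the 6 cation-chloride cotransporters 1 rose and 1 fell. Slc12a2, which brings sodium, potassium and chloride into the cell, was at 62.99, 70.3, 63.8 and 52.5 CPM and 49.2, 36.2, 41.6 and 31.3 CPM and fell by a log2 change of -0.63 ± 0.14 (SE). Slc12a7, which lets potassium and chloride out, was at 144, 129, 132 and 164 CPM and 196, 317, 231 and 280.3 CPM and rose by a log2 change of 0.88 ± 0.15 (SE). Neither gene's groups overlapped.

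The strongest fall of all members was that of Slc5a3, the sodium-coupled importer of the osmolyte myo-inositol. It was at 35.7, 37.7, 36.2 and 25.5 CPM in polyA control and 13.4, 10.8, 16.1 and 3.197 CPM in polyA miR-106b libraries. Control replicate 4 was the lowest control and still above each miR-106b library, and the log2 change was -1.58 ± 0.28 (SE) (edgeR adjusted p = 0.00111). The other 3 members of its list, Slc45a3, Slc45a4 and Slc50a1, did not pass, although 2 members of the list did without polyA miR-106b replicate 1. Slc20a1, a sodium-coupled phosphate importer, was at 48.1, 57.9, 48.95 and 46.4 CPM and 20.6, 21.3, 36.2 and 13.5 CPM and fell by a log2 change of -1.12 ± 0.20 (SE). The second such importer, Slc20a2, was at 120.1, 106.3, 109.7 and 113 CPM and 122, 169, 153 and 165 CPM, a rise of 0.46 ± 0.12 (SE) on the log2 scale without overlap. The pair moved in opposite directions in the same libraries.

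Of 15 zinc carriers 1 was higher and 4 were lower, beside 19.0% and 21.5% of all genes, with a median log2 change of -0.08. Without polyA control replicate 1 or 3, or with no filter on low counts, 3 zinc carriers were called in place of 5. Slc30a4, which loads zinc into vesicles, was at 45.7, 42.8, 42.4 and 27.6 CPM in polyA control and 22.4, 13.6, 19.8 and 13.1 CPM in polyA miR-106b libraries, a log2 change of -1.16 ± 0.20 (SE) without overlap. Slc30a1, the zinc exporter of the plasma membrane, stood at 13.1 to 15.98 CPM and 13.6 to 19.3 CPM and did not pass, nor did the zinc importer Slc39a1, at 158 to 179.9 CPM and 136 to 190.1 CPM. Of the 8 carriers of iron, copper, heme and magnesium 3 were higher and 1 lower. Slc41a2, a magnesium carrier, was at 24.8, 26.4, 30.01 and 19.7 CPM and 11.9, 12.3, 9.76 and 6.75 CPM and fell by a log2 change of -1.26 ± 0.20 (SE). Its relative Slc41a3 stood at 54.3 to 69.9 CPM and 90.9 to 139 CPM and rose by 0.90 ± 0.16 (SE) on the same scale. Slc11a1, which pumps iron and manganese out of the phagosome of macrophages, was at 7.14, 4.12, 5.001 and 6.50 CPM and 9.001, 16.8, 10.6 and 15.6 CPM, a log2 change of 1.22 ± 0.26 (SE). Slc11a2, the iron importer of most cells, stood at 37.1 to 44.3 CPM and 38.01 to 44.6 CPM, with a log2 change of 0.03 ± 0.11 (SE) that did not pass.

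Nucleoside, vitamin and drug carriers completed the named changes. Slc28a2, a sodium-coupled importer of purine nucleosides, was at 3.01, 2.75, 2.73 and 4.57 CPM in polyA control and 5.93, 11.5, 6.89 and 5.33 CPM in polyA miR-106b libraries. Control replicate 4 came close to the lowest miR-106b library, yet the groups did not overlap, and the log2 change was 1.23 ± 0.30 (SE). Slc43a3, a carrier of purine nucleobases, stood at 11.97 to 15.4 CPM and 23.9 to 35.2 CPM and rose by 1.14 ± 0.17 (SE). Slc29a1, an equilibrative nucleoside transporter and 1 of the 5 nucleoside carriers, was at 163, 160.3, 165 and 141 CPM and 69.6, 105, 119.7 and 62.9 CPM and fell by a log2 change of -0.80 ± 0.17 (SE). Among 9 carriers of vitamins and choline 0 rose and 3 fell. Of these, Slc19a2, a thiamine importer, was at 33.96, 33.9, 30.8 and 24.9 CPM and 12.7, 16.3, 20.1 and 9.24 CPM, a log2 change of -1.06 ± 0.19 (SE).

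Slc47a1, which exports organic cations in exchange for protons, stood at 6.77 to 11.8 CPM in polyA control and 15.8 to 29.5 CPM in polyA miR-106b libraries, a log2 change of 1.31 ± 0.24 (SE). Slc17a7, which loads glutamate into vesicles, stood at 9.51 to 14.1 CPM and 19.1 to 34.4 CPM and rose by 1.15 ± 0.22 (SE). Slc15a3, a lysosomal carrier of histidine and small peptides found in immune cells, stood at 5.76 to 9.68 CPM and 10.98 to 22.8 CPM and rose by 1.14 ± 0.24 (SE). Of its exon length 28.1% lies opposite Tmem132a, whose mean was 96.9 CPM. These were 2 of the 11 organic ion and peptide carriers and 1 of the 4 carriers of taurine, creatine and transmitters. Slc6a6, the taurine transporter, stood at 416 to 459.5 CPM and 387 to 556 CPM and did not pass. The members with the highest mean CPM in 4 further roles were Slc44a2, a choline transporter-like protein, with a log2 change of -0.11 ± 0.11 (SE), Slc35e1 of the nucleotide sugar family with 0.01 ± 0.09 (SE), the mitochondrial sodium/calcium exchanger Slc8b1 with 0.03 ± 0.17 (SE) and Slc45a4 with -0.01 ± 0.13 (SE), and these 4 did not pass. The adaptor Slc9a3r2 stood at 72.3 to 95.2 CPM and 117 to 189 CPM, with a log2 change of 0.89 ± 0.17 (SE) that passed. Of the 20 nucleotide sugar and other Golgi or ER carriers 3 were higher and 3 lower, and their median log2 change was -0.03. By place, 16 of 72 plasma membrane carriers were higher and 24 lower, and 5 of 45 inner membrane carriers were higher and 5 lower, beside 19.0% and 21.5% of all genes; that difference was not tested.

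**Figure D3:**
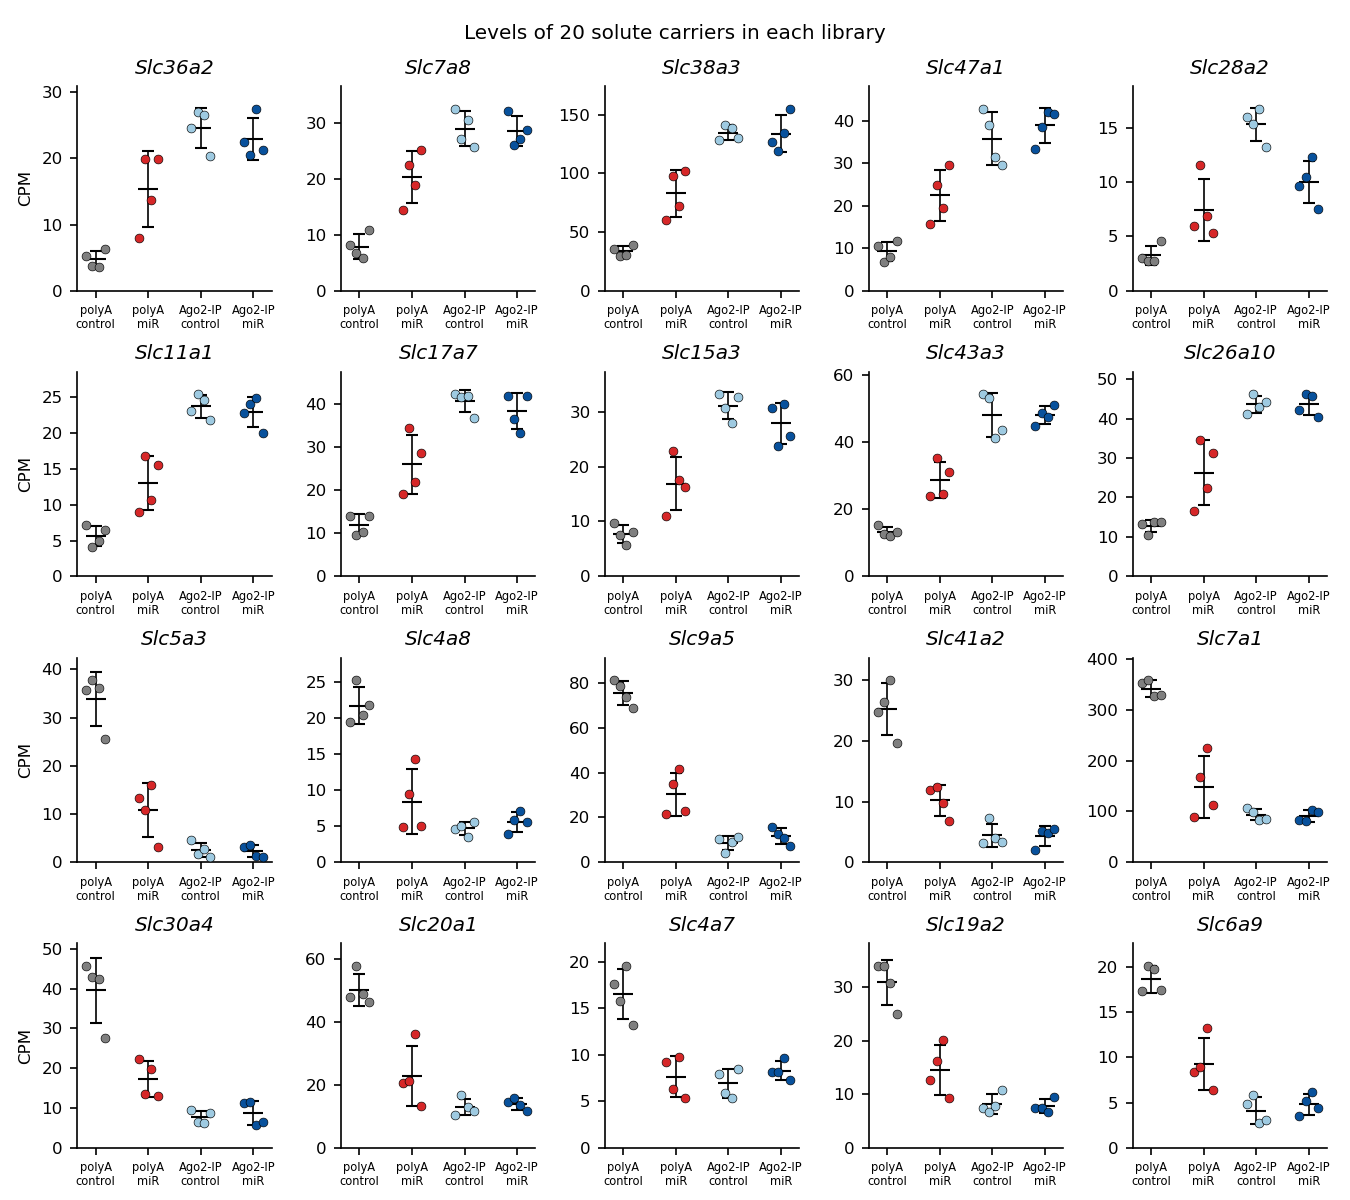
CPM in each of the 16 libraries (points) with the group mean and SD (bars) for the 10 members that rose most and the 10 that fell most in polyA RNA among those whose polyA groups do not overlap; each y axis starts at 0. In the upper 10 panels the Ago2-IP libraries stand above the polyA control libraries and in the lower 10 below them, for example 20.4 to 27.1 CPM of Slc36a2 in Ago2-IP control against 3.64 to 6.32 CPM in polyA control.

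Within the polyA miR-106b group the 4 libraries did not move by the same amount. In replicate 1 the cardiac sum was 50966 CPM, the lowest of the group. Slc36a2, Slc7a8, Slc38a3, Slc47a1, Slc11a1, Slc17a7, Slc15a3, Slc43a3 and Slc26a10 were each lowest there too. Slc28a2, the remaining gene of the strongest rises, was lowest in replicate 4 instead. Slc7a1, Slc9a5 and Slc4a8 were also lowest in replicate 1, while Slc5a3, Slc41a2, Slc20a1, Slc19a2 and Slc6a9 were lowest in replicate 4. Without replicate 1, 61 members were called in polyA RNA, 27 higher and 34 lower, and 6702 of all genes against 6034 with every library. Without polyA control replicate 1 or without replicate 2, 47 were called in each case, and 4581 and 4423 of all genes.

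Markers of other cells moved with several of the rises. Slc11a1 and Slc15a3 are carriers of phagocytes, and the 5 macrophage and leukocyte markers summed to 106.5 to 157 CPM in polyA control, 226 to 363 CPM in polyA miR-106b, 511 to 527 CPM in Ago2-IP control and 479 to 543 CPM in Ago2-IP miR-106b libraries. As sums, though not in each gene (Myl4 differed), the 25 cardiac genes and the 5 endothelial genes were ordered by group in the same way. The endothelial sums were 188 to 278, 349.5 to 658, 852 to 872 and 809 to 888 CPM. The 6 kidney tubule markers went the other way, with means of 17.6 and 8.45 CPM in the control and miR-106b polyA libraries (exact permutation test, two-sided, p = 0.0857, n = 4 per group), nearly all of it Lrp2 at 16.9 and 8.10 CPM. The part of these cell markers in the changes of the carriers was not tested.

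The second comparison asked whether miR-106b changed the carriers in Ago2-IP RNA. No member was called, 0 of 126 beside 0.0% of all genes (edgeR), and DESeq2 called 0 as well. At an unadjusted p under 0.05 there were 10 members, beside 5.55% of all genes. Log2 changes ran from -0.65 to 0.78, with a median of -0.01 beside 0.00 in all genes tested. In 5 members the groups did not overlap, beside 3.24% of all genes.

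The 3 members on each side with the smallest p are given with their levels. Slc28a2 was at 15.99, 15.4, 16.8 and 13.2 CPM in Ago2-IP control and 9.69, 10.4, 12.3 and 7.56 CPM in Ago2-IP miR-106b libraries. The groups did not overlap, but the log2 change of -0.61 ± 0.19 (SE) had an adjusted p of 0.636 by edgeR. Slc26a11, a carrier of sulfate and chloride, was at 16.6, 12.6, 8.93 and 10.6 CPM and 7.75, 7.25, 8.42 and 7.56 CPM, also without overlap, with a log2 change of -0.64 ± 0.22 (SE). Slc39a1 had 135, 113, 129 and 108 CPM and 104, 105, 109 and 105 CPM, a log2 change of -0.19 ± 0.07 (SE) with groups that overlap. On the other side Slc38a6, an amino acid carrier of the SNAT family, was at 19.7, 12.6, 14.1 and 17.1 CPM and 28.3, 27.2, 17.5 and 15.4 CPM, with a log2 change of 0.47 ± 0.18 (SE). Slc37a1, a phosphate-linked carrier of glucose 6-phosphate in the ER, had 0.33 ± 0.16 (SE) and Slc6a17 had 0.38 ± 0.19 (SE). In these 3 the groups overlapped.

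**Figure D4:**
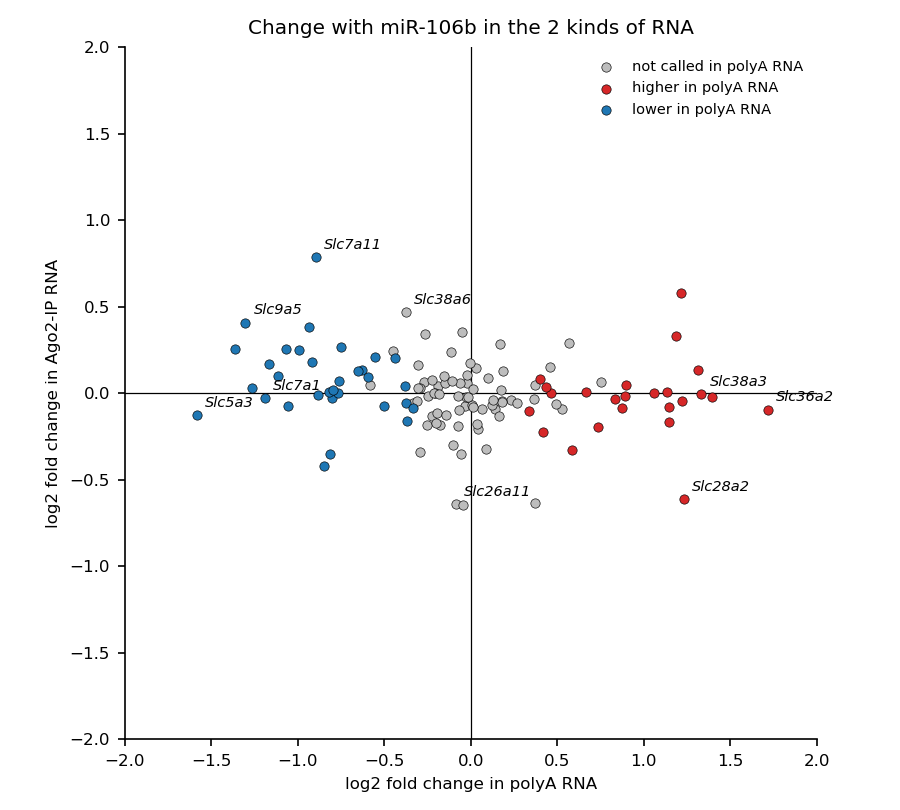
Log2 fold change with miR-106b of each of the 126 members in polyA RNA (x axis) and in Ago2-IP RNA (y axis), with the same range on both axes; colors give the call in polyA RNA. Members spread from -1.58 to 1.72 along the x axis and from -0.65 to 0.78 along the y axis.

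The third comparison was the change of the Ago2:polyA ratio, the study's measure of RISC association, tested as an interaction over all 16 libraries. Of the 126 members 15 rose and 26 fell, 41 in all beside 27.3% of all genes, 7.62% higher and 19.7% lower, and 34.2% of genes at or above 5 CPM. With library size in place of TMM, or with TMM within each kind of RNA, 25 members rose and 22 fell. With no filter on low counts 22 rose and 20 fell. The scaling moved the median of all genes from -0.07 to 0.10 and 0.08, so the split of rises and falls rests on the scaling and on the filter, and changes are best read against those medians. The polyA libraries enter this ratio, so its values are not independent of the polyA changes.

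The largest rises of the ratio are given beside the Ago2-IP levels. Slc9a5 had the largest, 1.56 ± 0.34 (SE) on the log2 scale (edgeR adjusted p = 0.00146), and its Ago2-IP level was 10.6, 4.19, 8.93 and 11.05 CPM in control and 15.9, 12.8, 11.00 and 7.27 CPM with miR-106b, which overlap. Slc7a11 followed with 1.52 ± 0.47 (SE). Its Ago2-IP levels were 2.57, 1.12, 2.70 and 3.47 CPM and 8.14, 3.48, 3.56 and 2.62 CPM, of which replicate 1 with miR-106b stood alone. Without that library the rise was 1.11, with adjusted p = 0.0793 by edgeR, so the call rests on it. Slc4a8 rose by 1.47 ± 0.39 (SE), Slc30a4 by 1.18 ± 0.33 (SE), Slc4a7 by 1.18 ± 0.31 (SE) and Slc6a17 by 1.17 ± 0.24 (SE). In the Ago2-IP libraries Slc4a7 stood at 5.41 to 8.45 CPM in control and 7.27 to 9.71 CPM with miR-106b.

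Slc7a1, Slc41a2, Slc6a9 and Slc19a2 also have a seed site and fell in polyA RNA. Slc7a1 rose by 1.01 ± 0.28 (SE), with Ago2-IP levels of 105.9, 99.7, 83.3 and 85.8 CPM in control and 82.2, 80.3, 104 and 99.2 CPM with miR-106b that overlap. Slc41a2 rose by 1.16 ± 0.40 (SE) and Slc6a9 by 1.10 ± 0.36 (SE), and Slc19a2 by 0.84 ± 0.30 (SE). Leaving out 1 library at a time ended the call of Slc41a2 in 9 of 16 fits, of Slc19a2 in 10 and of Slc6a9 in 4. Over these fits the log2 changes were 1.01 to 1.49, 0.70 to 1.01 and 0.95 to 1.32 in that order. A block for replicate number also ended the call of Slc19a2. The ratio of Slc5a3 had a log2 change of 1.32 ± 0.65 (SE) that did not pass (edgeR adjusted p = 0.144). It did pass with no filter on low counts and with the replicate block. Slc5a3 stood at 1.08 to 4.57 CPM in Ago2-IP control and 1.16 to 3.48 CPM in Ago2-IP miR-106b libraries.

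The largest falls of the ratio were those of Slc28a2, -1.99 ± 0.35 (SE) on the log2 scale, and Slc36a2, -1.96 ± 0.33 (SE) (edgeR adjusted p = 9.27e-05). Slc36a2 was at 24.6, 27.1, 26.5 and 20.4 CPM in Ago2-IP control and 22.5, 20.6, 27.5 and 21.2 CPM in Ago2-IP miR-106b libraries, with overlap. Slc7a8 followed with -1.56 ± 0.26 (SE), Slc38a3 with -1.48 ± 0.20 (SE), Slc15a3 with -1.45 ± 0.26 (SE) and Slc11a1 with -1.41 ± 0.28 (SE). In Ago2-IP RNA, Slc38a3 was at 129 to 141 CPM in control and 119 to 155 CPM with miR-106b.

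The members were also compared between the 2 kinds of RNA in control cells that had received no miR-106b. Of the 126 members 43 were higher and 60 lower in Ago2-IP than in polyA RNA, 103 in all beside 73.3% of all genes, 35.4% higher and 37.9% lower, and 80.0% of genes at or above 5 CPM. The groups did not overlap in 84.1% of the members, beside 70.5% of all genes, and 93 were both called and without overlap, beside 63.3%. The median log2 ratio was -0.18 in the members and -0.06 in all genes tested. With library size alone these became -0.47 and -0.35, with 35 members higher and 73 lower. The kinds of RNA came from different cultures and preparations, so the effect of Ago2 binding and that of the preparation cannot be told apart.

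**Figure D5:**
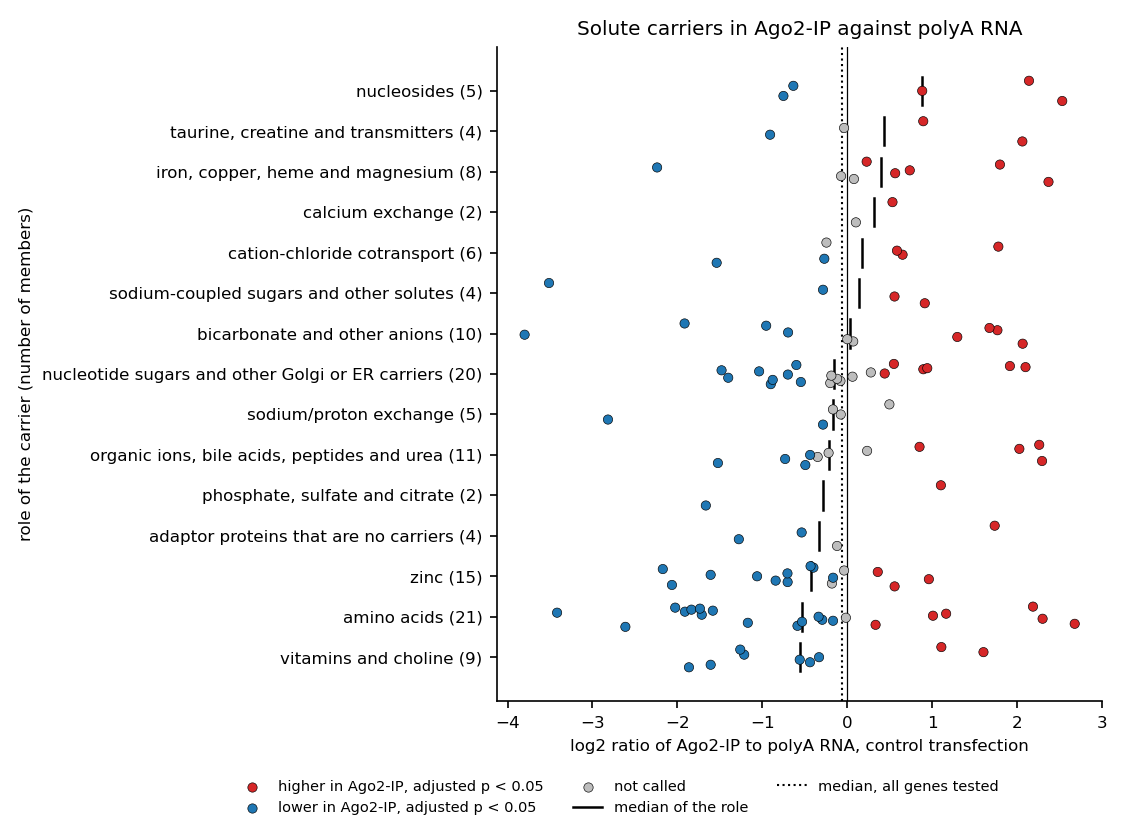
Log2 ratio of Ago2-IP to polyA RNA in control-transfected cells (x axis) of each of the 126 members, by role (y axis, with the number of members); red and blue points passed the test and bars give the role's median. Nucleoside carriers have the highest median, 0.88, and carriers of vitamins and choline the lowest, -0.56.

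The highest ratios belonged to Slc36a2, 2.68 ± 0.18 (SE) on the log2 scale, and Slc28a2, 2.53 ± 0.21 (SE). Slc11a1 with 2.37, Slc38a3 with 2.30, Slc15a3 with 2.30 and Slc47a1 with 2.26 came next. Slc38a3 was at 35.5, 29.6, 30.01 and 39.00 CPM in polyA control and 129, 141, 138 and 129.8 CPM in Ago2-IP control libraries, far apart. Each of the 6 genes was higher in all Ago2-IP control than in all polyA control libraries, as were 26.1% of all genes.

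The lowest ratio was that of Slc4a11, a carrier of the bicarbonate family that moves protons rather than bicarbonate, at 15.2, 17.97, 13.8 and 20.4 CPM in polyA control and 0, 1.40, 0.811 and 1.52 CPM in Ago2-IP control libraries. It was the only member with 0 counts in a library and with a group mean under 1 CPM, and its log2 ratio of -3.80 ± 0.33 (SE) rests on few counts. Slc5a3 had -3.51 ± 0.25 (SE), from 25.5 to 37.7 CPM to 1.08 to 4.57 CPM. Slc6a17 was better covered, at 147, 162, 153 and 158 CPM in polyA control and 7.71, 11.7, 14.1 and 13.4 CPM in Ago2-IP control libraries, a log2 ratio of -3.42 ± 0.11 (SE). Slc9a5 had -2.82, Slc1a4 -2.61 and Slc41a2 -2.24. In all 6 no Ago2-IP control library reached the lowest polyA control library, beside 44.5% of all genes. Slc4a11, Slc5a3 and Slc41a2 met the rule of 5 CPM only through their polyA levels. Their Ago2-IP control means were 0.931, 2.51 and 4.43 CPM. The rule takes in such genes, so these low ratios are a description.

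By role, 14 of the 21 amino acid carriers, 10 of the 15 zinc carriers and 7 of the 9 carriers of vitamins and choline were lower in Ago2-IP RNA, against 6, 3 and 2 that were higher, beside 37.9% of all genes lower and 35.4% higher. Amino acid carriers had a median log2 ratio of -0.53 and zinc carriers of -0.43. Of the 8 carriers of iron, copper, heme and magnesium 5 were higher and 1 lower, and of the 5 nucleoside carriers 3 were higher and 2 lower. Slc7a1 was at 327 to 359 CPM in polyA control and 83.3 to 105.9 CPM in Ago2-IP control RNA, with a log2 ratio of -1.58 ± 0.08 (SE), while Slc6a6 stood at 416 to 459.5 CPM and 332 to 363 CPM.

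Members with and without a seed site were set side by side. Of the 37 members with a match to bases 2 to 8, or to bases 2 to 7 followed by A, 5 were higher and 13 lower in polyA RNA, with a median log2 change of -0.20, beside 572 higher and 772 lower of all 3048 genes with a site. Of the 89 without one, 19 were higher and 19 lower, with a median of -0.05, beside 2152 and 2310 of all 10186 genes without one. Among all genes tested the medians were -0.12 with a site and -0.03 without. In Ago2-IP RNA the medians of the members were -0.000779 with and -0.01 without a site, and 0 were called in either list. The ratio rose in 9 and fell in 5 of the 37, with a median of 0.03, and rose in 6 and fell in 21 of the 89, with a median of -0.15. Of all genes it rose in 266 and fell in 589 of the 3048 with a site, and rose in 829 and fell in 2248 of the 10186 without. The 15 rises and 26 falls of all members became 25 and 22 with library sizes alone or TMM within each RNA kind, and the lists with and without a site were not recomputed there. The difference between the lists was not tested. Slc5a3, Slc4a8, Slc9a5 and Slc20a1 fell in polyA RNA with no match to bases 2 to 8 in the 3'UTR searched (Slc5a3 has 1 match to bases 2 to 7 followed by A), and Slc17a7 and Slc12a7 rose with one.

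Other genes of transport gave a frame for the members. Of 19 ion pumps and partner subunits, 8 were higher and 2 lower in polyA RNA, with a median log2 change of 0.13, beside 19.0% and 21.5% of all genes. Of 51 tested genes with names of the families left out, 50 of them protein-coding, 20 were higher and 9 lower, with a median of 0.26. Among them 13 of 34 genes of the mitochondrial Slc25a family were higher and 5 lower. The members' own counts were 24 higher and 32 lower. In the control comparison 33 of these 51 genes were higher in Ago2-IP than in polyA RNA and 10 lower. That stands beside 43 and 60 of the 126 members and 35.4% and 37.9% of all genes. In Ago2-IP RNA 0 of the 19 pumps and 0 of the 51 genes were called with miR-106b.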

How the data were processed

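PolyA RNA and Ago2-IP RNA were sequenced from 4 libraries per group and 4 groups. The authors deposited raw read counts per gene: per the labels and the methods, single-end reads were cleared of rRNA reads, aligned with TopHat2 to mouse GRCm38 and counted with HTSeq 0.9.1. The TopHat2 version is given as 2.0.10 in the submitters' processing notes and as 2.1.1 in the methods. The libraries kept no strand, so strand cannot tell apart the reads of genes that overlap on opposite strands.

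CPM here is counts over a library's total. Members and gene lists were chosen with earlier results of these data known. Genes with at least 1 CPM in at least 3 of the 4 libraries of any group (14897 genes) were fitted with the quasi-likelihood F test of edgeR 4.0.16 (limma 3.58.1, R 4.3.3) after TMM scaling, robust, with Benjamini-Hochberg adjustment and a threshold of 0.05. Each comparison of 2 groups was fitted on their libraries, and the ratio as an interaction over all 16. The fits were tried on simulated counts with the same spread in every gene and group. That trial does not cover the uneven spread of the real replicates. Named genes were, in polyA RNA, the 10 strongest rises and 10 strongest falls among called members whose groups do not overlap, in Ago2-IP RNA the 3 members on each side with the smallest p, in the ratio and between kinds of RNA the 6 on each side, the member with the highest mean CPM in each role and 9 well-known carriers, of which 1 is not reported here. Single sums were compared with exact permutation tests, in Python 3.11.15 with scipy 1.17.1. Alternatives were other scalings, filters, DESeq2 1.42.0, a replicate block, other sets of libraries and leaving out each library. p-values measure the spread between replicate cultures of 1 kind of labelled cells. The SE values come from the edgeR fit and hold the spread between replicates, while the floor of 3 counts covers counting error only. Seed matches were searched in the longest 3'UTR of GENCODE M21.

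Equal replicate numbers did not pair the libraries: correlations of the deviations of same-numbered libraries ran from -0.52 to 0.39.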

Additional observations from a re-analysis of the deposited data

Results flagged for a closer look

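In 9 of 272 groups of 4 libraries, 1 library stood apart from the other 3 by Dixon's test, where chance gives about 1 in 20 groups. PolyA control replicate 4 was the library in 4 of them: Slc1a4 was at 47.6 CPM there and 62.3 to 63.5 CPM in the others, Slc28a2 at 4.57 CPM against 2.73 to 3.01 CPM, Slc38a10 at 382 CPM against 331 to 337 CPM, and Slc5a3 at 25.5 CPM against 35.7 to 37.7 CPM. In Ago2-IP RNA, Slc17a7 was at 36.8 CPM in control replicate 4 and 41.6 to 42.3 CPM in the others. Slc4a11 was at 1.74 CPM in miR-106b replicate 2 and 0.582 to 0.775 CPM in the others, and Slc7a11 at 8.14 CPM in miR-106b replicate 1 and 2.62 to 3.56 CPM in the others. The summed organic ion and peptide carriers were at 172 CPM in polyA miR-106b replicate 3 and 162 to 164 CPM in the others. The summed juxtaglomerular and mural markers were at 5239 CPM in Ago2-IP control replicate 4 and 5507 to 5539 CPM in the others.

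The change with miR-106b differed between Ago2-IP and polyA RNA in 29 of 47 named members (edgeR interaction test), beside 27.3% of all genes. Many of the 47 were named for the size of their polyA or ratio change, so nothing is read from this count. The difference in log2 change, Ago2-IP minus polyA, was above 0 for Slc9a5 1.56, Slc7a11 1.52, Slc4a8 1.47, Slc30a4 1.18, Slc4a7 1.18, Slc6a17 1.17, Slc41a2 1.16, Slc6a9 1.099, Slc20a1 1.07, Slc7a1 1.01, Slc19a2 0.84, Slc29a1 0.67 and Slc12a2 0.62. It was below 0 for Slc28a2 -1.99, Slc36a2 -1.96, Slc7a8 -1.56, Slc38a3 -1.48, Slc15a3 -1.45, Slc11a1 -1.41, Slc17a7 -1.37, Slc47a1 -1.32, Slc43a3 -1.28, Slc26a10 -1.20, Slc12a7 -1.11, Slc9a3r2 -1.06, Slc4a3 -1.01, Slc37a1 -1.01, Slc41a3 -0.998 and Slc20a2 -0.61.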

How the results depend on the processing

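The count of the 126 members called in each comparison stayed within 1.5 times its value under every alternative run. In polyA RNA it ran from 51 to 57 in the other settings and from 47 to 61 with 1 library left out, in the ratio from 40 to 47 and from 35 to 48, and between the kinds of RNA in control cells from 96 to 108 and from 99 to 102. In Ago2-IP RNA it was 0 throughout. With the replicate block the counts were 53, 40, 99 and 0. The numbers pair no libraries. Of the 56 members called in polyA RNA, 42 were called the same way in all 8 fits without 1 library and 49 in all 7 other settings. For the ratio this held for 30 and 30 of 41. With all 16 libraries in 1 fit, 29 members were higher and 27 lower in polyA RNA.

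A 6mer match to bases 2 to 7 stood in 65 of the 126 members. The members' median log2 change of the ratio was -0.10, and became 0.07 with library size only and 0.04 with TMM within each kind of RNA. Among the named members, directions reversed only in those that were not called in polyA RNA. With all 16 libraries in 1 fit the log2 changes were 0.0394 for Slc26a11, 0.0535 for Slc39a1, 0.0167 for Slc44a2 and 0.111 for Slc45a4, and with library size only -0.0181 for Slc35e1 and -0.0119 for Slc38a10. Slc45a4 was at 0.056 with DESeq2 size factors, 0.0557 in DESeq2 and 0.00403 with no filter. Without 1 library the range was -0.214 to 0.0600 for Slc26a11, -0.0279 to 0.115 for Slc35e1, -0.0143 to 0.0828 for Slc38a10, -0.0725 to 0.114 for Slc45a4 and -0.0366 to 0.225 for Slc8b1. The cause was not tested. Slc37a1 lost its polyA call without polyA miR-106b replicate 2 (log2 change 0.91, edgeR adjusted p = 0.0570). In the ratio, Slc37a1 (-1.01) was not called with DESeq2 size factors (-0.95), library size only (-0.83), TMM within each kind of RNA (-0.86) or the replicate block (-0.99), nor in 9 of 16 fits without 1 library, and Slc12a2 lost its call in 8 of these. Slc5a3 gained a call in the ratio with no filter on low counts (1.47, edgeR adjusted p = 0.00667) and with the replicate block (1.43, edgeR adjusted p = 0.0339) and Slc19a2 lost its own there (edgeR adjusted p = 0.0558). Depth limits Slc4a11, Slc5a3, Slc7a11 and Slc41a2, which hold few counts in Ago2-IP libraries.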
